A study of Mus musculus with 6 samples.

Results

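The genes described here are those of the interferon response and of antigen presentation. They were chosen by symbol alone: all array genes whose symbol belongs to the Ifi, Ifit, Ifitm, Irf, Stat, Gbp, Oas, Mx, Irgm, Trim30, H2, Tap, Isg or Ifnar families, and the genes Igtp, Iigp1, Rsad2, B2m, Tapbp, Bst2, Xaf1, Ddx58 and Ifih1. The choice gave 102 of the 18193 genes that the array names from a probe set with 1 symbol. Where several probe sets read a gene, the one brightest on average over the 6 arrays was used. Another 27 probe sets carry several symbols, a family symbol among them, and were left out. Messenger RNA was measured on 3 arrays of neural stem cells from young C57BL/6JRj mice of 6 weeks and on 3 arrays of the same cell type from old mice of 9 months of the same strain. The labels give no genotype change, agent or treatment for either group, and do not say from which brain region the cells came, whether they were cultured or whether the replicates came from separate animals. The p-values therefore cover the scatter among these 6 samples alone, and that scatter may be technical.

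Interferons are secreted proteins that warn cells of infection. They bind receptors whose kinases phosphorylate STAT proteins, and the STATs, with the partner IRF9 or as dimers, switch on many genes through a pair of short promoter elements, ISRE and GAS. The induced proteins block viral entry, translation and replication, destroy viral RNA, or, as with the guanylate-binding and immunity-related GTPases, attack the vacuoles of intracellular parasites. Interferons also raise antigen presentation, in which peptides pumped into the endoplasmic reticulum by the TAP transporter are loaded on class I molecules made of a heavy chain and B2m. Neural stem cells carry interferon receptors and are known to respond to interferon in the aged brain.

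Most markers of the labelled cell type were measured at both ages. Of 11 markers of neural stem cells and radial glia 10 passed the filter used below (above log2 4 on 3 or more arrays), among them Nes at log2 12.76 in young and 12.30 in old cells and Sox2 at 13.44 and 13.31. Nes fell by 0.46 (log2, adjusted p = 0.00746), Sox2 did not pass (adjusted p = 0.122), and Prom1 was under the filter. Hes5, a Notch target, passed through the young arrays alone: it stood at 7.91, 7.91 and 7.52 in young and 2.73, 2.42 and 2.14 in old cells (adjusted p = 5.56e-05). Sox1 fell by 0.73 (log2, adjusted p = 0.000402) and Msi1 rose by 0.52 (adjusted p = 0.00712), while the other 5 did not pass. Of 19 markers of microglia and macrophages 18 lay under log2 4 on all 6 arrays, with Aif1, Csf1r, Ptprc, Cx3cr1 and Tyrobp at the array's lowest value, log2 2.14. Their summed level was 89 to 96 linear units on the young and 101 to 148 on the old arrays, most of the difference being Cd68, a lysosomal protein of macrophages that other cells also make (young mean 3.67, old mean 5.07, adjusted p = 0.0697). Prom1, Hes5, Sox1, Msi1 and Cd68 were named after their values were seen. All 7 lymphocyte markers lay under log2 4. Cd3e among them and the endothelial genes Pecam1 and Cdh5 were at the lowest value on all arrays, as was Pdgfrb of mural cells. Of 8 endothelial markers 7 lay under log2 4 on all arrays, with summed levels of 106 to 121 on the young and 60 to 82 on the old arrays. Of 9 mural and fibroblast markers 7 did, with sums of 398 to 451 and 134 to 162. Astrocyte markers moved with age: 4 of 5 were higher in old cells and 1 was lower, and their summed level was 10088 to 10609 linear units on the young and 19282 to 20742 on the old arrays. Neuron and neuroblast markers went the other way, with a summed level of 714 to 872 on the young and 40 to 48 on the old arrays. Most of the difference in the mural, astrocyte and neuron sums lay in 1 gene each. Mean log2 went from 8.13 to 6.14 for Cspg4 (mural), 12.58 to 13.94 for Gja1 (astrocyte) and 9.50 to 3.83 for Tubb3 (neuron). These genes too were named after their values were seen. Among 6 oligodendrocyte lineage markers 3 were measured and 1 was lower, with sums of 17870 to 19241 and 18733 to 20179. The part of these cell types in the results below was not tested, and in bulk RNA fewer cells of a type cannot be told apart from less RNA per cell. All 18 hybridisation controls had their old values below their young values without overlap, by a mean log2 difference of -0.96 (exact permutation p = 0.1, two-sided, which is the least possible with 3 samples a group). Young replicate 2 stood apart from the other young arrays on the second principal component, which held 9.9% of the variance beside 83.2% on the first, which separates the ages. It had the lowest array weight, 0.4, and was the lowest young array for 23 of the 39 genes that passed the filter described next.

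Testing was limited to probe sets above log2 4 on 3 or more of the 6 arrays, since no detection calls were used here and log2 4 stands in for background. Of the 102 genes 39 passed, or 38.2%, and 63 did not, where 55.2% of all genes passed. Of the 39, 18 were higher in old cells and 4 were lower at an adjusted p under 0.05 (limma, Benjamini-Hochberg over all 19858 probe sets tested), and 17 did not pass. Of all 10050 genes kept by the filter 22.0% were higher and 18.5% were lower, and of the 19858 probe sets 20.1% and 16.5%, or 36.6% in either direction. At least 2-fold differences were called for 13 genes upward and 2 downward, where all kept genes gave 6.62% and 4.84%. The old arrays all lay above the young arrays for 22 of the 39 and all below them for 8, where all kept genes gave 31.8% and 28.2%. The median log2 difference of the 39 was 0.34, against 0.01 for all kept genes. The filter itself bears on these counts: Ifi27l2a, Igtp, Irgm2, Tap1 and H2-Eb1 lay under log2 4 on every array of 1 age and passed through the other age alone. Without young replicate 2 the counts were 19 higher and 5 lower. The share of all genes called in that fit is not given here, so these counts are not set against it.

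**Figure D1:**
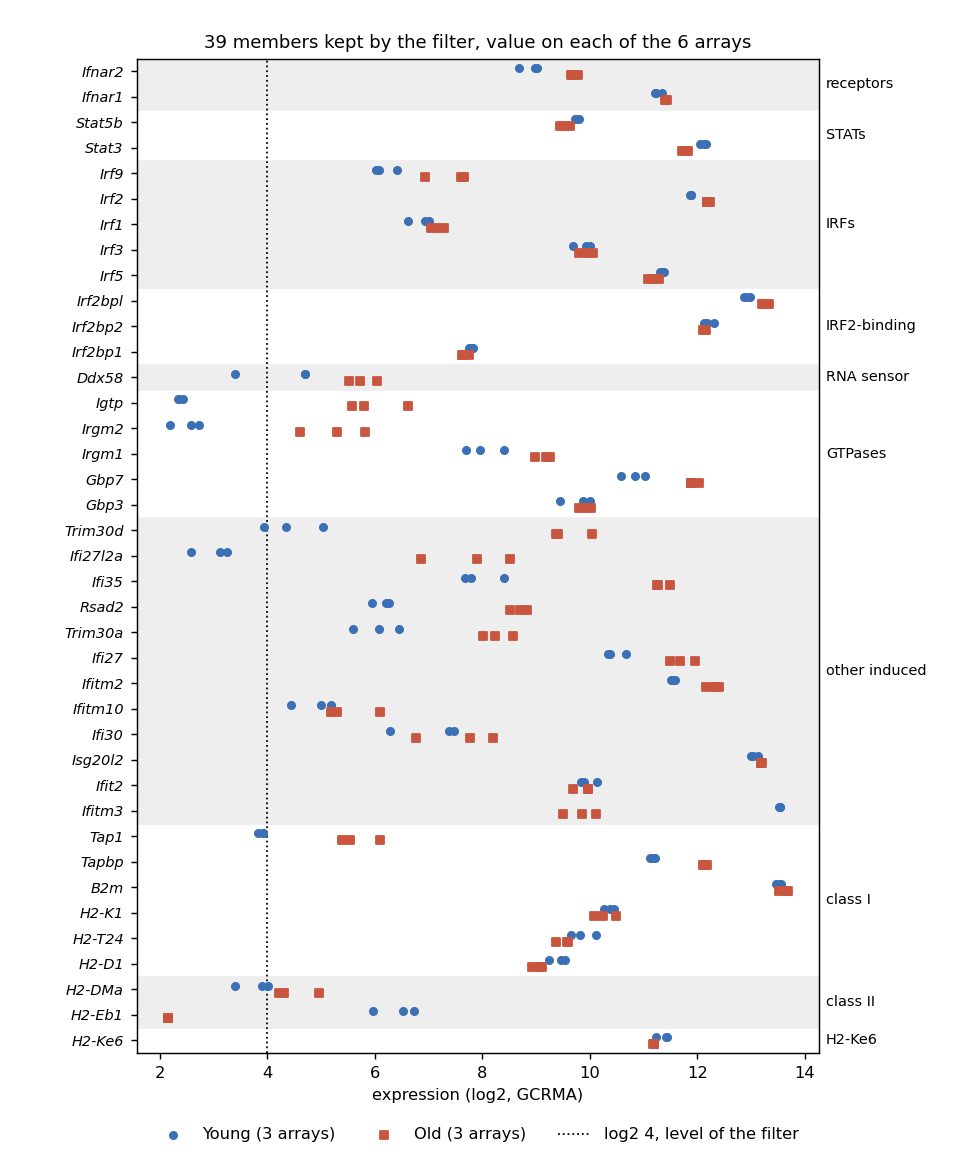
Expression of the 39 genes kept by the filter on each array, on the x axis as log2 GCRMA values, grouped by role, with young arrays as blue circles and old arrays as red squares. Igtp, Irgm2 and Ifi27l2a lie left of the dotted line at log2 4 on the 3 young arrays and right of it on the 3 old arrays, while H2-Eb1 and Ifitm3 lie further left on the old arrays.

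The promoters of the set were searched for both elements. The ISRE was searched as GAAA, any 2 bases and GAAA on both strands (TTTC, any 2 bases and TTTC when read on the other) in the RefSeq promoter windows of assembly GRCm38.p6, from 250 bases before to 50 after each start site, with overlapping matches, also those of the ISRE with the GAS, counted apart. Of the 102 genes 82 had such a window. The element was found for 29 of the 82, or 35.4%, against 3.99% of the 27025 genes with a window and 3.44% of the 32851 windows. The GAS element, searched as TTCNNNGAA, was found for 19 of the 82, or 23.2%, against 9.55% of genes and 8.3% of windows. A match is a stretch of letters and was not tested as a binding site. The genes were chosen by names tied to interferon and antigen presentation, so a higher share than among all genes is no independent result. Windows of neighbours can overlap, as those of Ifit1 and Ifit1bl2 do, and their matches are then counted for both genes. The sequences below are shown because their genes went in different directions: Igtp, Irgm2, Gbp7, Trim30d, Rsad2 and Ifitm2 were higher in old cells, B2m did not pass the test, Ifit1 was under the filter and Ifitm3 was lower. Each runs 5′ to 3′ on the gene's own strand, from position -150 to -1 with the start site at 0, or for Ifitm3 from -120 to 29, with the ISRE matches in capitals. Where a gene has several windows, the one with the most matches is shown.
Igtp (chr11:58199406-58199555, + strand): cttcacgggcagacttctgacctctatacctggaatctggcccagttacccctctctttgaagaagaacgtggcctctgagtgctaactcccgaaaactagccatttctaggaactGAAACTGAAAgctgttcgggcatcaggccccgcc
Irgm2 (chr11:58214827-58214976, + strand): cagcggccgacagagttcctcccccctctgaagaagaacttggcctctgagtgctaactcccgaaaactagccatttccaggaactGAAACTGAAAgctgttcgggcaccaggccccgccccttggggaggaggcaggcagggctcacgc
Gbp7 (chr3:142530186-142530335, + strand): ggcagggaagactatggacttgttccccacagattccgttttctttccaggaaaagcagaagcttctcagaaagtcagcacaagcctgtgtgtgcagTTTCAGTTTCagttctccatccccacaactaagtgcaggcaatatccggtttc
Trim30d (chr7:104507850-104507999, - strand): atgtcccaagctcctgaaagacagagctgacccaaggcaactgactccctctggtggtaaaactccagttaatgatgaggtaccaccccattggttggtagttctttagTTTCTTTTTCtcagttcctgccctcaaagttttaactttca
Rsad2 (chr12:26456453-26456602, - strand): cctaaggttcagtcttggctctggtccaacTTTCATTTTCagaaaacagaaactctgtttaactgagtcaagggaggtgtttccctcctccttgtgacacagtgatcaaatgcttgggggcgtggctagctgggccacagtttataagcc
Ifitm2 (chr7:140955962-140956111, - strand): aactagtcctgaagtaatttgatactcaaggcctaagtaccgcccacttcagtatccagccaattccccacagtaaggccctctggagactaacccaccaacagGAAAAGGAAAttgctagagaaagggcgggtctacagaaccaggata
B2m (chr2:122147537-122147686, + strand): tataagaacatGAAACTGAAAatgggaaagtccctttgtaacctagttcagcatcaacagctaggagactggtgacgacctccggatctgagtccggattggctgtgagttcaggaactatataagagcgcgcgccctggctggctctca
Ifit1 (chr19:34640739-34640888, + strand): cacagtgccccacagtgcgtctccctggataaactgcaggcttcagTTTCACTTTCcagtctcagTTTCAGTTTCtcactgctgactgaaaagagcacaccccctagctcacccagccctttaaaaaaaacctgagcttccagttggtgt
Ifitm3 (chr7:141010715-141010864, - strand): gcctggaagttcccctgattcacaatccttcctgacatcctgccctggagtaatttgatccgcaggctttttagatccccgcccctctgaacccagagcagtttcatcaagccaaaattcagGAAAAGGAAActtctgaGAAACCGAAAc

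Igtp and Irgm2, neighbours on chromosome 11, share an unbroken run of 61 bases across their windows. That run begins after the ISRE match in both windows and does not hold it. For Igtp most of it lies after the start site, outside the printed stretch. The window of Ifitm3 holds 2 ISRE matches after its start site, while the match of Ifitm2 lies at -46 to -37. By outcome, the ISRE was found for 10 of the 16 genes higher in old cells that had a window and for 1 of the 4 lower. It was found for 2 of the 16 that did not pass and for 16 of the 46 under the filter. Genes at background on all arrays, such as Oas1a, Oas3 and Bst2, were thus among those with a match.

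**Figure D2:**
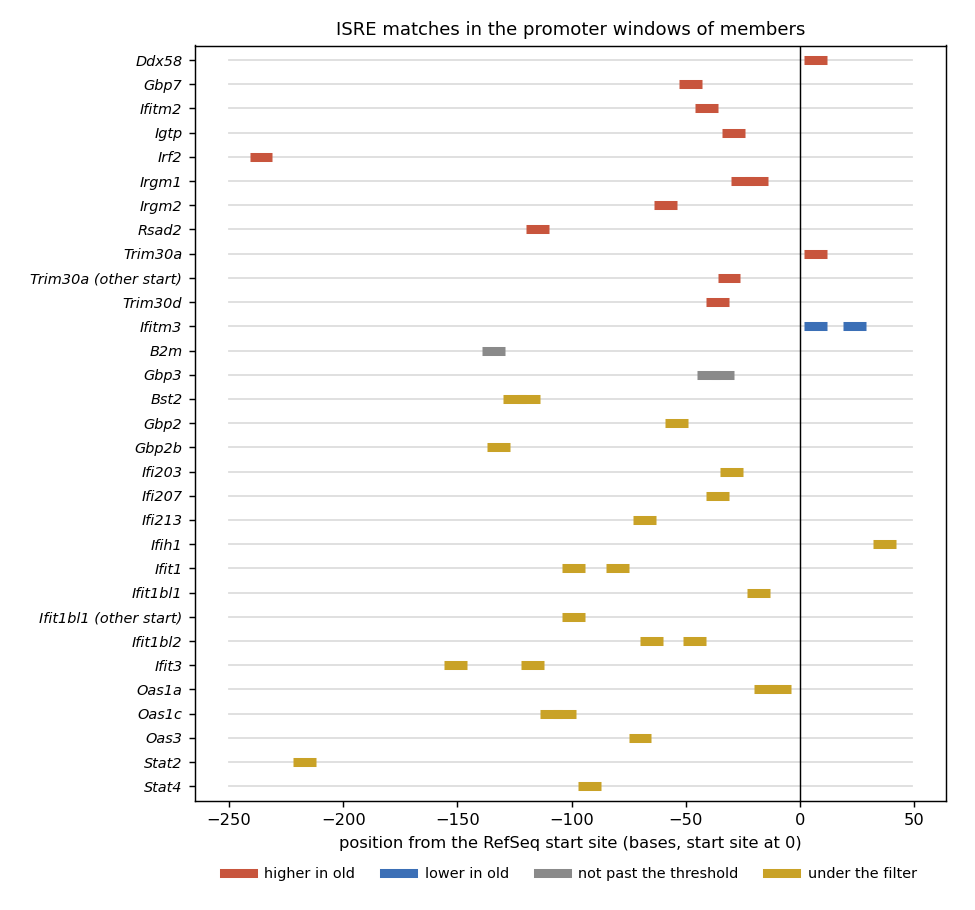
Position of each ISRE match (thick bar) from the RefSeq start site, in bases on the x axis, for the windows of genes of the set that hold one (thin line, 250 bases before to 50 after), with the colour giving the outcome in old against young cells. In Igtp the match lies at -34 to -25, and windows of genes under the filter hold matches as well.

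Of the receptor chains 1 of 2 rose, and of the 2 measured STAT genes 1 fell. Both counts are too small to be set apart from the 22.0% and 18.5% of all kept genes. Ifnar2, the signalling chain that binds interferon tightly, stood at 9.02, 8.68 and 8.99 in young and 9.65, 9.70 and 9.78 in old cells (log2). Its ages did not overlap and it rose 1.75-fold (log2 change 0.81 ± 0.11 SE, adjusted p = 0.00365), though its other 2 kept probe sets did not pass (log2 changes 0.28 and 0.60, adjusted p = 0.3 and 0.158). The partner chain Ifnar1 had a log2 difference of 0.15 (adjusted p = 0.0764). Of the 6 STAT genes Stat3 and Stat5b were above the filter. Stat3, which carries signals of the interleukin 6 family, fell from 12.12, 12.05 and 12.16 to 11.82, 11.72 and 11.78, a small change of -0.34 ± 0.06 (log2, SE, adjusted p = 0.00773), and another probe set of it fell as well (-0.31, adjusted p = 0.00942), while one more did not pass (-0.98, adjusted p = 0.17). Stat5b did not pass (-0.22, adjusted p = 0.0526). Stat2, a partner in the complex that binds the ISRE, stayed under log2 4 on all 6 arrays with a highest value of 3.16, and Stat4, Stat5a and Stat6 did so too.

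Among the IRF transcription factors 2 of 5 measured genes rose and none fell, a count too small to be set apart from the 22.0% and 18.5% of all kept genes. Irf9, the DNA-binding part of the complex that reads the ISRE, stood at 6.41, 6.07 and 6.03 in young and 7.60, 6.93 and 7.66 in old cells, without overlap, and rose 2.34-fold (log2 1.22 ± 0.23 SE, adjusted p = 0.0113). Irf2, best known as a competitor of IRF1 on the same element, rose by log2 0.33 (adjusted p = 0.00375), a shift of 1.25-fold between tight groups. Irf1 itself, an early target of interferon gamma, had a log2 difference of 0.31 with a 95% interval of 0.001 to 0.616 (adjusted p = 0.104). Irf3 (0.07, adjusted p = 0.651), which is held inactive in resting cells, and Irf5 (-0.17, adjusted p = 0.109) did not pass. Irf4 and Irf8, factors of blood cells, and Irf7, the factor that interferon induces to amplify its own production, reached no more than 2.14 on any array. The symbol rule also takes 3 genes of IRF2-binding corepressors, of which Irf2bpl rose by 0.34 (log2, adjusted p = 0.00914) and Irf2bp1 and Irf2bp2 did not pass. Of the sensors of viral RNA, Ddx58 (RIG-I) stood at 4.70, 3.39 and 4.69 in young and 5.52, 6.04 and 5.73 in old cells and rose 2.83-fold (adjusted p = 0.0334). The call of Ddx58 did not hold when young replicate 3 or any of old replicates 1, 2 and 3 was removed. Its adjusted p was up to 0.135 over all alternatives. A second probe set of Ddx58 passed the filter through the old arrays alone. Its log2 change was 1.35 (adjusted p = 0.00499), at least 1.5-fold against log2 4. Ifih1 (MDA5), the other sensor, did not exceed 2.75.

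Of the 5 measured GTPases of the interferon response 4 rose and none fell, and all 4 rose at least 2-fold by the fitted values. All kept genes gave 22.0% higher, 18.5% lower and 6.62% at least 2-fold higher. Igtp and Irgm2 passed the filter through the old arrays alone. Igtp (Irgm3), a regulator of the immunity-related GTPases, stood at 2.43, 2.35 and 2.34 in young and 5.79, 5.57 and 6.62 in old cells. It was near the array's lowest value in all young samples and above log2 4 in all old samples, a rise of at least 3.98-fold against log2 4 (adjusted p = 0.000646). Its neighbour Irgm2 went from 2.72, 2.19 and 2.58 to 4.60, 5.29 and 5.81, at least 2.35-fold (adjusted p = 0.0028). Irgm1, the third regulator of this class and a factor in autophagy of vacuoles, was clearly measured at both ages, at 8.41, 7.70 and 7.95 in young and 8.99, 9.26 and 9.19 in old cells. It rose 2.18-fold (log2 1.13 ± 0.20 SE, adjusted p = 0.00894). Gbp7, a guanylate-binding protein, rose 2.16-fold from 11.03, 10.58 and 10.85 to 12.04, 11.88 and 11.88 (adjusted p = 0.00239). Another probe set of Gbp7 rose by log2 1.88 (adjusted p = 0.00476). Gbp3, of the same gene cluster on chromosome 3, had a log2 difference of 0.14 (95% interval -0.25 to 0.53, adjusted p = 0.507). The other 7 genes of this class were under the filter. Of these, Gbp2 reached 3.74 and Gbp6 3.57, while the effector GTPase Iigp1 and the antiviral proteins Mx1 and Mx2 stayed at 2.14 on all 6 arrays.

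Among the 42 antiviral and other interferon-induced proteins 12 were measured, of which 7 rose and 1 fell. These shares, 58.3% and 8.33%, stand beside 22.0% and 18.5% of all kept genes, and Ifi27l2a passed the filter through the old arrays alone. The largest fitted difference of the 39 genes was that of Trim30d, a tripartite motif protein, at 3.93, 5.04 and 4.35 in young and 9.37, 10.05 and 9.41 in old cells. It rose 36.0-fold (log2 5.17 ± 0.34 SE, adjusted p = 0.000389), but its young samples lie on both sides of log2 4, so the size of the fold rests on a baseline near background. Another probe set each of Trim30d and Trim30a did not exceed 2.15 on any array. Trim30a, its neighbour, which in mice restrains signalling by Toll-like receptors, rose 4.70-fold from 6.08, 6.44 and 5.59 to 8.02, 8.57 and 8.23 (adjusted p = 0.00231). The Trim30 genes are close paralogs, and whether their probe sets read each other's transcripts was not tested. Ifi27l2a, a mitochondrial protein of the Isg12 family, went from 3.24, 2.58 and 3.11 to 6.86, 7.91 and 8.52, at least 13.6-fold against log2 4 (adjusted p = 0.00125), with the old samples further apart than the young. Its relative Ifi27 rose 2.37-fold (adjusted p = 0.00295) and by log2 1.49 at a second probe set (adjusted p = 0.00719), and Ifi27l2b stood at 2.76 on all 6 arrays.

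Ifi35, which binds the partner protein Nmi, stood at 7.68, 7.79 and 8.41 in young and 11.27, 11.25 and 11.49 in old cells. It rose 10.4-fold (log2 3.37 ± 0.21 SE, adjusted p = 0.000334). A second probe set, which passed the filter through the old arrays alone, rose at least 3.68-fold against log2 4 (adjusted p = 0.000616). Rsad2 (viperin), which makes a chain-terminating nucleotide against viral RNA polymerases, stood at 6.26, 6.20 and 5.95 in young and 8.51, 8.83 and 8.70 in old cells. It rose 5.83-fold (log2 2.54 ± 0.12 SE, adjusted p = 0.000141), and by log2 2.17 at a second probe set (adjusted p = 0.00177). Ifit2, which acts on viral RNA and is often among the first genes induced, did not pass (-0.08, 95% interval -0.38 to 0.21, adjusted p = 0.605). Ifi30, a thiol reductase of endosomes, overlapped between the ages (0.53, adjusted p = 0.434), as did Ifitm10 (0.66, adjusted p = 0.154). Isg20l2, a nuclease of ribosomal RNA processing named for its likeness to Isg20, had a log2 difference of 0.13 (adjusted p = 0.106).

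The IFITM proteins, membrane proteins that hinder the fusion of enveloped viruses with cells, went in opposite directions. Ifitm3 stood at 13.55, 13.54 and 13.53 in young cells and at 9.50, 10.11 and 9.86 in old cells (log2). The young samples were nearly equal, and all old samples were far below them, a 13.2-fold fall (log2 change -3.72 ± 0.16 SE, adjusted p = 0.000101). Ifitm2, its neighbour on chromosome 7, stood at 11.59, 11.51 and 11.56 in young and 12.16, 12.34 and 12.41 in old cells and rose 1.68-fold (log2 0.75 ± 0.08 SE, adjusted p = 0.00169). Both calls were kept under all 18 alternatives, with log2 changes of -3.86 to -3.56 for Ifitm3 and 0.70 to 0.82 for Ifitm2. Ifitm3 was the 1 gene that fell among the 12 measured genes of this class of the set. Ifitm1 (highest value 2.15), Ifitm5 and Ifitm7 were at background, and Ifitm6 reached 3.72 on an old array.

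In class I presentation 2 of 6 measured genes rose, both of the loading machinery, and 1 heavy chain fell. These shares, 33.3% and 16.7%, are near the 22.0% and 18.5% of all kept genes, and Tap1 passed the filter through the old arrays alone. Tap1, a subunit of the peptide transporter, stood at 3.82, 3.92 and 3.92 in young and 5.53, 5.39 and 6.10 in old cells, a rise of at least 3.19-fold against log2 4 (adjusted p = 0.00184). Tap2, the other subunit, stayed at background with a highest value of 2.38 (log2), and 3 further probe sets of Tap1 were at 2.14 on all 6 arrays. Tapbp (tapasin), which bridges the transporter and the class I molecule, went from 11.21, 11.18 and 11.12 to 12.11, 12.12 and 12.18. It rose 1.96-fold (log2 0.97 ± 0.05 SE, adjusted p = 0.000176). B2m, the light chain of every class I molecule, was high at both ages and had a log2 difference of 0.11 (95% interval -0.05 to 0.27, adjusted p = 0.219). Of the classical heavy chains, H2-K1 had one of -0.09 (95% interval -0.39 to 0.20, adjusted p = 0.562) and H2-D1 fell by 0.38 (log2, adjusted p = 0.0293). The H2-D1 call did not hold when young replicate 1 or 3 or old replicate 1, 2 or 3 was removed (adjusted p of 0.0113 to 0.0981 over all alternatives), and another probe set of it did not pass (-0.34, adjusted p = 0.206). The intervals of B2m and H2-K1 leave no room for a 2-fold difference by these probe sets. H2-T24, a nonclassical heavy chain, did not pass (-0.35, adjusted p = 0.101). Class I genes are near copies of each other, and the kept probe sets of H2-K1 and H2-D1 are of the kind (_x_at) that can read several of them, so their values are uncertain as values of 1 gene. The other 11 class I genes reached no more than 2.38.

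Of the 9 class II genes, which present peptides from outside the cell and are a mark of professional antigen-presenting cells, 2 were measured. H2-Eb1, a class II beta chain, stood at 6.72, 5.96 and 6.52 in young cells and at 2.14, 2.15 and 2.14 in old cells. It was above log2 4 in every young sample and close to the array's lowest value in every old one, a fall of at least 5.28-fold against log2 4 (adjusted p = 0.000141). The microglial and macrophage markers Aif1, Csf1r and Cx3cr1 were at that lowest value on all 6 arrays. H2-DMa, which edits class II peptides, was just inside the filter at 4.01, 3.39 and 3.89 in young and 4.22, 4.31 and 4.96 in old cells and did not pass (0.73, adjusted p = 0.0786). The class II chains H2-Aa, H2-Ab1 and H2-Ea and the regulators H2-Oa and H2-Ob did not exceed 2.16 on any array. Ciita, the master activator of class II genes, and Cd74, the invariant chain that folds with class II molecules, were at 2.14 on all 6 arrays as well. H2-Ke6, a dehydrogenase gene that lies in the same region and that the symbol rule also takes, did not pass (-0.17, adjusted p = 0.114).

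**Figure D3:**
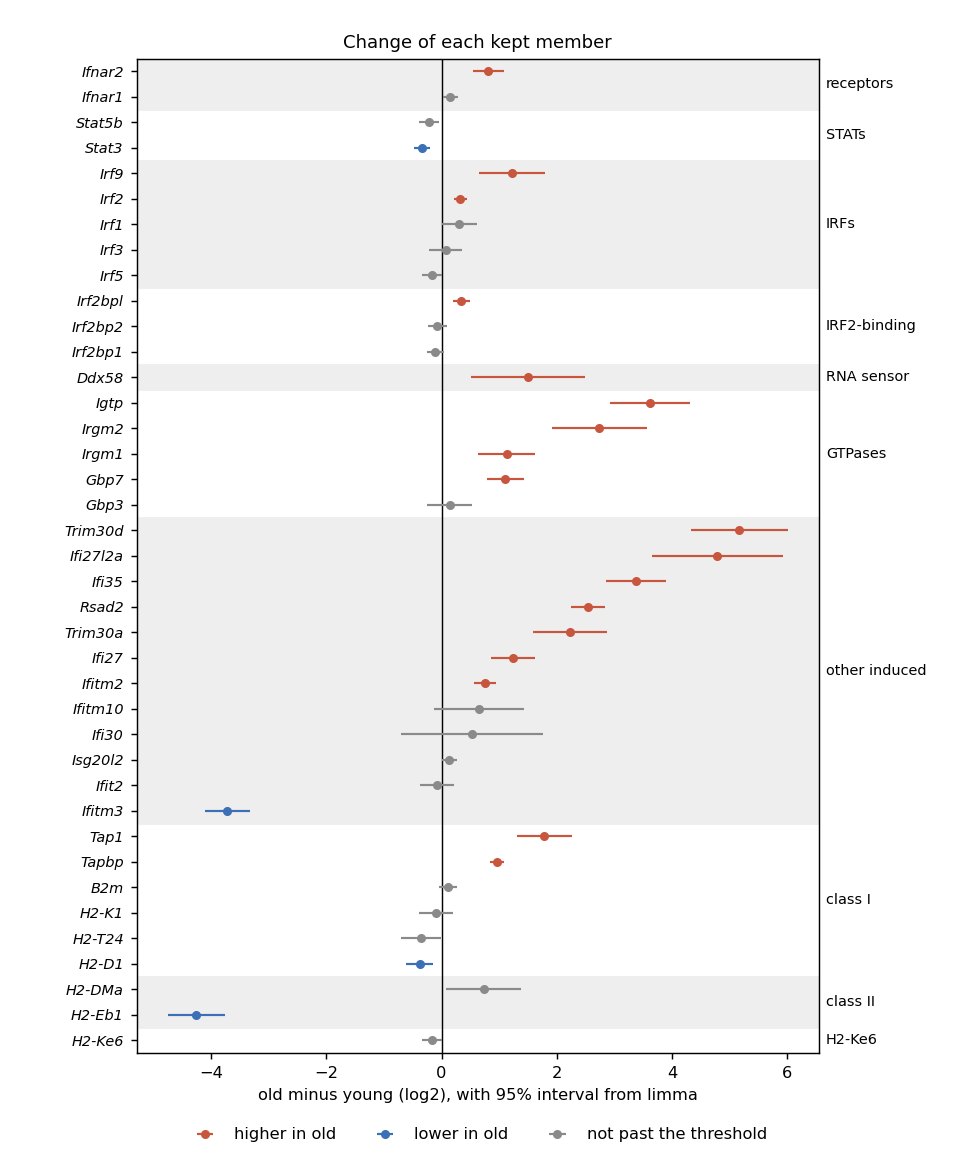
Log2 difference of old minus young for the 39 genes kept by the filter, with the 95% interval from limma, grouped by role. The 18 genes higher in old cells are red, the 4 lower are blue and the 17 that did not pass are grey; Trim30d lies furthest right at 5.17 and H2-Eb1 furthest left at -4.25.

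The 63 genes under the filter were mostly at background in both ages. Of all 18193 genes 8143 were under the filter, of which 7918 lay under log2 4 on all 6 arrays and 7167 did not exceed 2.5. Of the 63 genes here, 62 lay under log2 4 on all 6 arrays, and 53 did not exceed 2.5. These included every Oas gene named here (the Oas1 genes, Oas2, Oas3, Oasl1 and Oasl2), the synthetases that trigger decay of viral RNA. They also included Bst2 (tetherin), Isg20, Ifi44l and the Ifi200 family of nuclear proteins, among them Ifi203 and Ifi204. Ifit1 and Ifit3, which like Ifit2 act on viral RNA, did not exceed 2.59 and 2.68. Just outside the filter was Xaf1, a proapoptotic protein, which reached 5.25 and lay at 2.14, 2.14 and 2.28 in young and 3.97, 4.98 and 5.25 in old cells. When every probe set was tested without a filter, 3 of the 63 were called, all higher in old cells. They were Xaf1 (log2 2.55, adjusted p = 0.0256), Gbp6 (1.15, adjusted p = 0.0136) and Ifih1 (0.59, adjusted p = 0.000528), the latter 2 without reaching log2 4 on any array. In that fit 9.06% of all 18193 genes were called higher and 7.24% lower. Those shares take in the 10050 genes kept by the filter. The share among genes under the filter alone is not given here, so the 3 of 63 cannot be set against a like share.

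Where a gene had further probe sets above the filter, these were compared with the brightest one. There were 20 such probe sets for 13 of the genes, and all 20 had the same sign of change. Further probe sets under the filter are not in this count. They include 1 each of the called genes Tapbp, Rsad2, Stat3 and Ddx58 that stood at 2.14 on all 6 arrays. Of the 12 that belong to the 9 called genes among these, 7 were called the same way and 5 did not pass. Among the 7, those of Ddx58 and Ifi35 passed the filter through the old arrays alone. Of the 8 that belong to genes not called, none was called. Probe sets of 1 gene share the arrays and are not replicates.

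**Figure D4:**
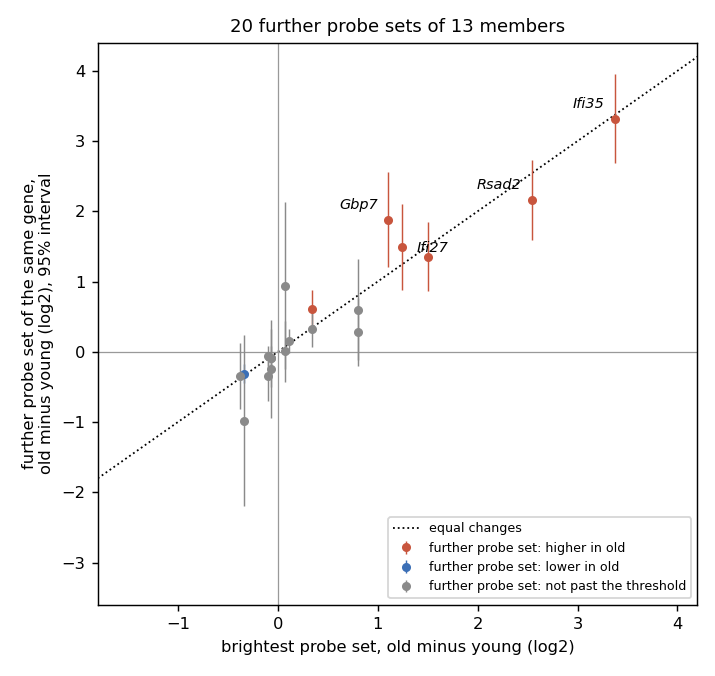
Log2 difference of old minus young at the brightest probe set of a gene (x axis) and at its further kept probe sets (y axis, with 95% interval), 20 probe sets of 13 genes, the dotted line marking equal changes. Ifi35, Rsad2, Gbp7 and Ifi27 were higher in old cells at both.

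Genes of the same pathways that the symbol rule does not take were read from lists of 102 named genes, of which 59 passed the filter. Of these, 27 were higher in old cells and 4 lower, to be read against the same 22.0% and 18.5%. The lists were chosen with earlier results of these data known, so the counts are no independent support for those of the set. Through the old arrays alone 3 of the 59 passed the filter, Lgals3bp and Erap1 among them. The 5 interferon genes on the list were under the filter, and Ifnb1 and Ifng were at 2.14 on all 6 arrays. The gamma receptor chains Ifngr1 (log2 difference 0.18, adjusted p = 0.528) and Ifngr2 (0.10, adjusted p = 0.745) did not pass, while Il10rb, a chain shared by the interleukin 10 and lambda interferon receptors, rose 2.22-fold (adjusted p = 0.0103). Of the receptor kinases Jak1 rose by log2 0.39 (adjusted p = 0.0149), and Jak2 (0.015, adjusted p = 0.805) and Tyk2 (0.21, adjusted p = 0.42) did not pass. Of the 7 measured negative regulators 1 rose, Socs3, a feedback inhibitor of these kinases, by 0.58 (adjusted p = 0.0204, a call lost without old replicate 2 or 3). Socs1 was at 2.14 throughout. Usp18, the feedback inhibitor at the receptor chain Ifnar2, stayed under the filter at 2.27, 2.14 and 2.29 in young and 3.61, 2.64 and 3.70 in old cells.

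Of 7 measured sensors of nucleic acid and their adaptors 5 rose and none fell, where all kept genes gave 22.0% higher and 18.5% lower. Tlr3, the endosomal receptor for double-stranded RNA, stood at 11.61, 11.43 and 11.50 in young and 12.94, 12.97 and 13.07 in old cells and rose 2.79-fold (adjusted p = 0.000138). Cgas, which senses DNA in the cytosol, rose by log2 1.32 (adjusted p = 0.000289), its adaptor Sting1 2.29-fold (adjusted p = 0.000536) and the Toll-like receptor adaptor Myd88 2.56-fold (adjusted p = 0.00233). For each of these the old samples lay above the young ones. Of 27 measured genes in the list of other interferon-induced genes 14 rose and 4 fell, or 51.9% and 14.8% beside the same 22.0% and 18.5%. Lgals3bp, a secreted glycoprotein, went from 2.67, 2.67 and 2.86 to 8.13, 8.34 and 8.50, at least 20.0-fold against log2 4 (adjusted p = 1.04e-05). Parp9, an ADP-ribosylation factor of the interferon response, rose 4.73-fold (adjusted p = 0.000529), Slfn9 2.47-fold (adjusted p = 0.000272) and Nmi, the partner of Ifi35, 1.85-fold (adjusted p = 0.000402). The 4 that fell, named after their values were seen, were Ly6e, a membrane protein that restricts coronavirus entry (7.89 to 3.87, adjusted p = 0.00109), Plscr1 (log2 change -0.68), Adar (-0.36), the editing enzyme that marks the cell's own RNA, and Cd47 (-0.20, which missed the threshold whichever of the 6 arrays was removed).

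Of the immunoproteasome subunits, which cut proteins into peptides for class I molecules, 1 was measured, Psmb10, and it rose by log2 0.31 (adjusted p = 0.0058). The other subunits were under the filter, Psmb8 at 3.34, 3.34 and 3.34 in young and 4.18, 3.70 and 4.87 in old cells, and Psmb9 at 2.90, 2.34 and 2.74 against 3.91, 4.76 and 5.16. In both, all old samples lay above all young ones, and neither entered the test. Of the 12 measured genes in the list of other antigen presentation genes 5 rose and none fell, beside the 22.0% and 18.5% of all kept genes. Erap1, 1 of the 5, passed the filter through the old arrays alone. Erap1, the aminopeptidase that trims class I peptides in the endoplasmic reticulum, went from 3.32, 3.54 and 3.41 to 6.41, 6.47 and 6.87, at least 6.00-fold against log2 4 (adjusted p = 0.000115). Mr1, a class I-like molecule that presents vitamin B metabolites, rose 8.84-fold from 5.48, 5.41 and 5.67 to 8.26, 9.00 and 8.74 (adjusted p = 0.000363). Lgmn, a lysosomal protease, rose 3.12-fold (adjusted p = 0.0266) and Pdia3, a chaperone of class I loading, 1.17-fold (adjusted p = 0.0263); both calls were lost without each of the old replicates, and that of Pdia3 also without young replicate 3. Nlrc5, the activator of class I genes, did not exceed 3.05 and its mean was 2.91 in young and 2.33 in old cells.

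**Figure D5:**
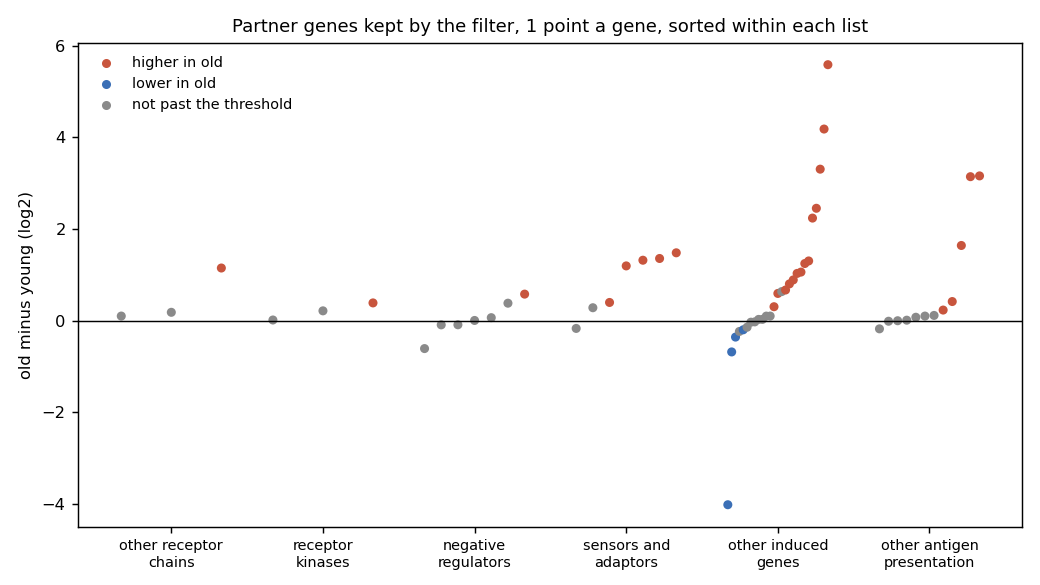
Log2 difference of old minus young for the 59 partner genes kept by the filter, 1 point a gene, sorted within each of 6 lists. Red points were higher in old cells (27), blue points lower (4) and grey points did not pass (28); the highest point is Lgals3bp at 5.59 and the lowest Ly6e at -4.02.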

How the data were processed

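Extraction used a NucleoSpin XS kit and biotin labelling a NuGEN Encore module, per the labels' protocols. The authors deposited 1 log2 level per probe set for each of 6 arrays, processed with GCRMA (submitters' processing notes). That method removes background by probe sequence and puts the arrays on 1 scale. The version of GCRMA was not given in the sources used here. On each array 38.3% to 40.4% of probe sets sit at its lowest value, so that spread between replicates can be understated near it and the size of a change out of it is uncertain. Genes under log2 4 on all arrays of 1 age are therefore given as at least N-fold, the mean of the other age against log2 4. The number of arrays limits the precision.

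Probe sets were named by the platform annotation. Old and young were compared with limma 3.58.1 in R 4.3.3 (lmFit, eBayes without trend, two-sided) over all 19858 kept probe sets, of which 36.6% were called at an adjusted p under 0.05. The fit had 4 residual and 1.47 prior degrees of freedom and was tested on simulated data. The members, roles, lists and tests were chosen with earlier results of these data known. Any member could be named. Of the lists, up to 4 genes with the smallest adjusted p and 16 genes fixed by name could be named, as well as the defining cell type markers. Alternatives were other filters, renormalization, centring, a replicate block, array weights, other variance priors and thresholds, other choices of probe set and leaving out each array. Promoters are from RefSeq. Figures were drawn with matplotlib 3.10.9.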

Additional observations from a re-analysis of the deposited data

How the results depend on the processing

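Of the 22 called genes of the set 19 kept their direction and call under every alternative that gave it a value, up to 18 in number. The call of Irf9 was lost without the filter and at an adjusted p under 0.01, and those of Ddx58 and H2-D1 were lost under several alternatives, leaving out single arrays among them. Of the 17 genes not called 6 passed under at least 1 alternative, and 0 of the 39 reversed. The count of genes higher in old cells was 17 to 19 on leaving out 1 array and 12 to 20 otherwise. The 12 came on a filter of log2 4 on all 6 arrays, which removes every gene with an array under that level. These include genes at background in 1 age, and also Trim30d and Ddx58, which each fell under it on a single young array. The count of genes lower was 3 to 5 throughout. Of the 31 called partner genes 21 kept their call throughout and 10 lost it at least once, and 9 of the 28 not called passed at least once. Their counts were 24 to 27 higher and 3 to 5 lower on leaving out 1 array, and 20 to 28 higher and 2 to 6 lower otherwise. At an adjusted p under 0.01 there were 2 lower partner genes in place of 4. Without the probe sets ending in _x_at, _s_at and _a_at, Ptpn2 read from another probe set had a log2 change of 0.81 (adjusted p = 0.018) and Azi2 of -0.41 (adjusted p = 0.0138), opposite in sign to their brightest probe sets, where neither passed. Both were named after their values were seen, and the cause was not tested.

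The replicate number as a block gave 18 genes of the set higher and 3 lower, and 24 partner genes higher and 3 lower. The share of all probe sets called in that fit is not given here. The deviations of same-numbered arrays from their group means correlated at -0.16, -0.108 and 0.157, and not every array correlated best with its own number, so the numbers were not taken to pair the samples. Dim genes limit the set: 63 of 102 could not be tested, and no detection calls were used.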
